A study of Porphyridium purpureum with 12 samples.

Results

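A set of 76 genes of *Porphyridium purpureum*, a unicellular red microalga, was low in both nitrogen-limited conditions and high before and after them. They make up 0.768% of the 9898 genes in the count table and 0.850% of the 8943 genes with a group mean of at least 50. Counts were divided by DESeq2 median-of-ratios size factors, which gives normalised counts, and each group mean was put on the log2 scale after adding 1. A gene was taken when NL1 and NL2 each lay at least 1 log2 unit, that is 2-fold, below NR and below LND, and when its largest group mean was at least 50. The nitrate transporter genes POR6298 and POR7993 were left out by the rule. POR6298 meets the thresholds (smallest of its 4 differences 1.75) and POR7993 does not (0.0330). Since these values chose the genes, the dip itself is a description and was not tested.

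The cells were of strain 1380/1A, grown in modified Provasoli medium in photobioreactors under continuous light, and were sampled as the nitrate in the medium ran down. Polyadenylated RNA was sequenced in 12 libraries, 3 for each of 4 conditions. NR is nitrogen replete at 1.5 g/L of residual nitrate, NL1 and NL2 are nitrogen limited at 0.6 and 0.5 g/L, and LND is late-stage nitrogen depletion at 0.3 g/L. They were sampled one after the other as the culture went from early logarithmic growth into the stationary phase, so nitrate and culture age cannot be told apart. The labels call the libraries of a condition technical replicates of one biological sample, and p-values here therefore measure only the spread between libraries, which may be technical. Library totals ran from 6398926 to 30556820 counts, and the smallest library, NR replicate 3, stood apart. Its genes differed from the mean of the other NR libraries by a median of 0.435 log2 units in size, against 0.141 to 0.256 for the other 11 libraries, so the differences it moves most are also given without it.

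An alga takes up nitrate, reduces it to nitrite and ammonium, and binds the ammonium into glutamine and glutamate. Asparagine synthetase binds nitrogen to aspartate, which gives asparagine, an amino acid that many plants use to store and move nitrogen. Flavohemoproteins of bacteria and yeast turn nitric oxide, a by-product of nitrate reduction in algae and plants, into nitrate. Small heat shock proteins hold unfolded proteins in solution without using ATP. These roles are given as background, since only 9 of the 76 genes were paired with a product name here. A further 2 are listed as hypothetical proteins, and for 65 no description was taken up. Those 65 are called genes without a description below, which does not mean that the annotation of the study has none.

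Together the 76 genes held 1.75% to 2.32% of the normalised counts in the NR libraries, 0.622% to 0.640% under NL1, 0.541% to 0.571% under NL2 and 2.25% to 2.31% at LND. The NL libraries were the low ones for the sum, with no overlap, which follows from the selection and is no further evidence of the dip. As a share of the library, LND lay within the NR range. A share divides by the library total and not by the size factor, which sets LND lower against NR. In the edgeR fits below, scaling by library totals moved the median log2 fold change of all genes in LND vs. NR from -0.038 to -0.35. The shares therefore do not show that LND came back to the NR level on the scale of the rule. POR4521 alone held a large part, and without it the shares were 1.38% to 1.79% in NR, 0.404% to 0.502% over both NL conditions and 1.80% to 1.83% in LND. These counts are relative to the rest of each library, so fewer cells with a transcript and less of it per cell cannot be told apart. They are not corrected for gene length, and levels are therefore compared between libraries and not between genes.

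**Figure D1:**
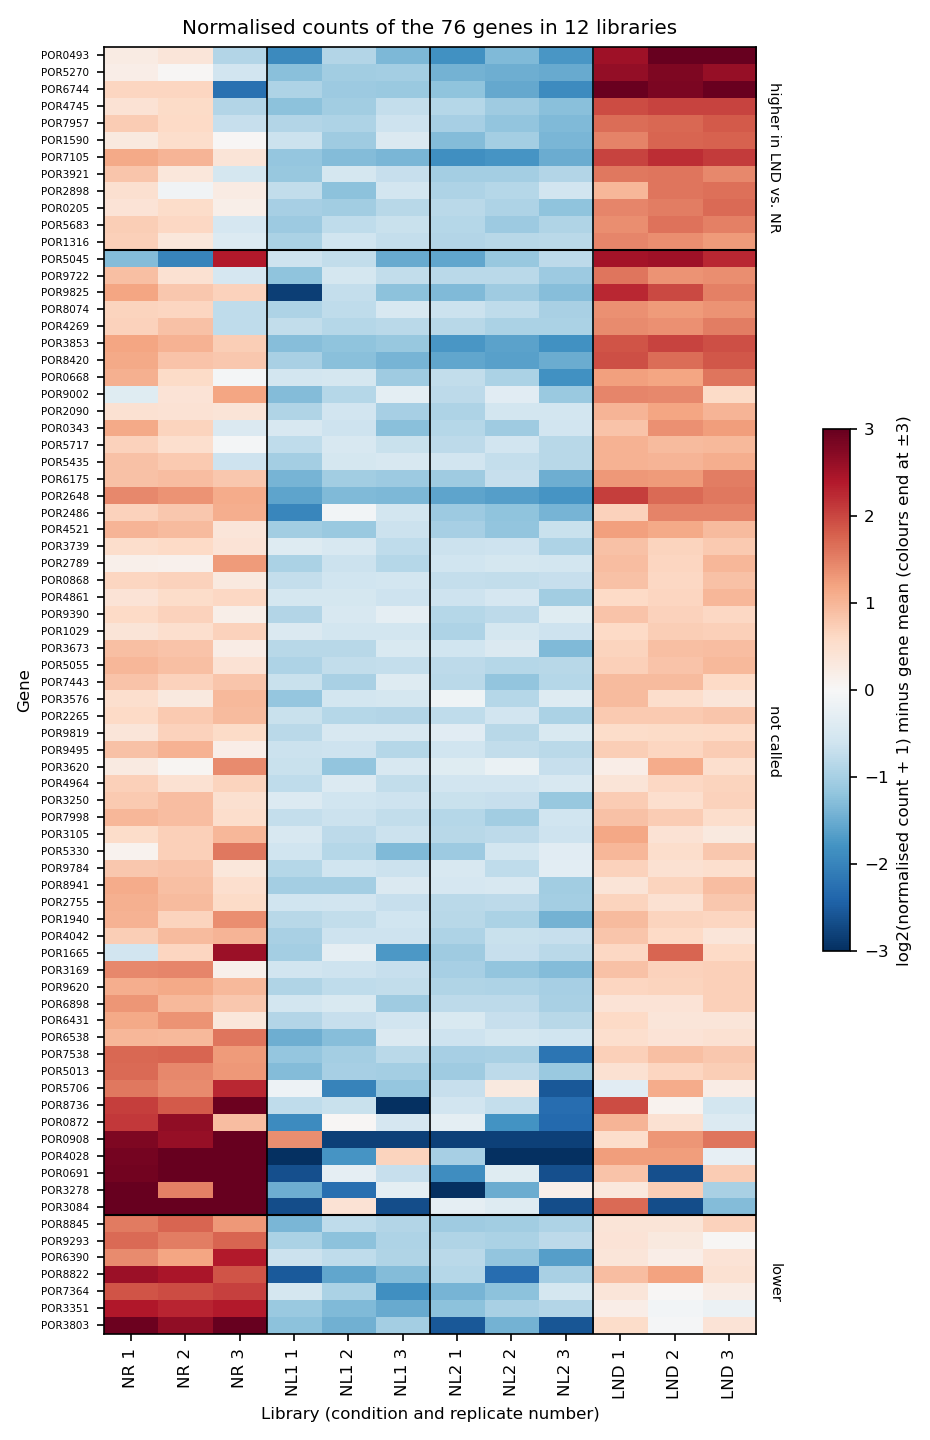
Normalised counts of the 76 genes (rows) in the 12 libraries (columns), as log2(normalised count + 1) minus the mean of the gene, with colours that end at ±3. Genes are grouped by their edgeR call in LND vs. NR (12 higher, 57 not called, 7 lower), and the NL1 and NL2 columns are the low ones in nearly every row.

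The depth of the dip, taken as the smallest of the 4 differences, ran from 1.00 to 2.71 log2 units with a median of 1.22. It was over 2 in 6 genes and over 1.5 in 18. The median member was 1.54 log2 units lower in NL1 than in NR and 1.65 lower in NL2, and LND was 1.57 above NL1 and 1.73 above NL2. Over the 8943 genes the same 4 medians were 0.022, 0.025, -0.034 and -0.018, the first pair as NR minus NL. Just inside the threshold were POR2898 (1.004) and POR1590 (1.006), both without a description. Just outside were POR1023 (0.991) and POR7013 (0.988), whose group means in the order NR, NL1, NL2 and LND were 2200.4, 1106, 739 and 5979 (POR1023) and 7300.2, 3681, 3005 and 15716 (POR7013). Genes on either side of the threshold thus have like profiles, and the number of members depends on where it is drawn.

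**Figure D2:**
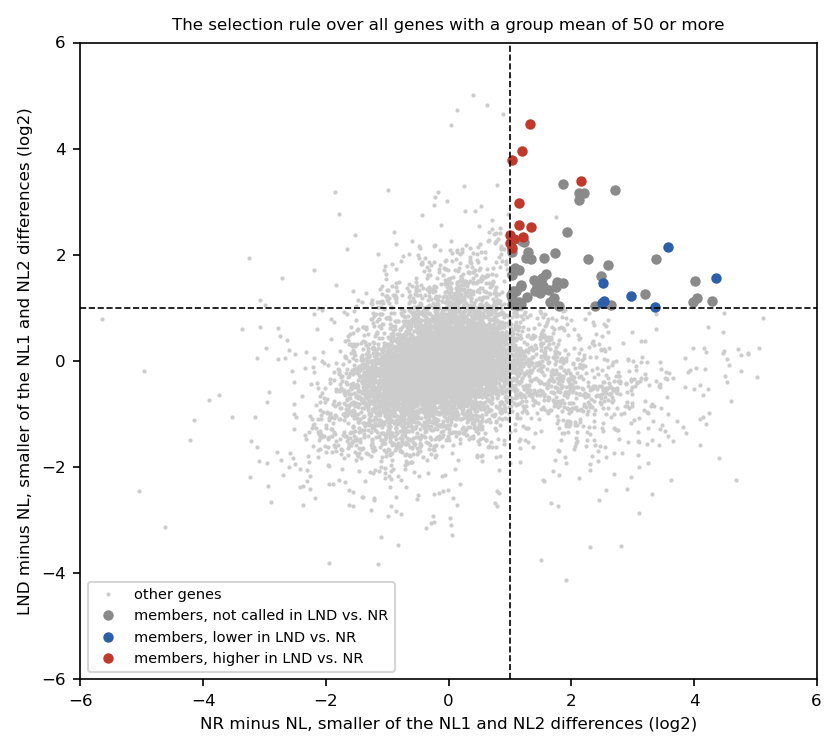
The selection rule over the 8943 genes with a group mean of at least 50. The x axis is NR minus NL and the y axis LND minus NL in log2 units, each the smaller of the differences to NL1 and NL2, and the dashed lines mark 1. Members sit in the upper right corner. The only other gene in that corner is the nitrate transporter gene POR6298, left out by the rule.

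In 66 members every NR library lay above every NL library, in 69 every LND library did, and in 59 both held. Of the 8943 genes, 22.0%, 21.1% and 5.50% did so. The rule used the means of these libraries, so the larger share among members is built in and nothing is read from it. By edgeR's quasi-likelihood test, called at an adjusted p below 0.01 with a change of 1 log2 unit or more, 45 members were called lower in NL1 vs. NR (7.92% of all genes tested were) and 59 lower in NL2 vs. NR (9.08%). Of 73 members tested, 67 were called higher in LND vs. NL1 (6.51%), and of 71 tested, 65 were called higher in LND vs. NL2 (6.96%). The rule used these 4 contrasts, and nothing is read from the counts. The 5 members left untested in one or both had too few counts to pass the filter there. They are POR0691, POR3084, POR3278, POR4028 and POR0908.

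The asparagine synthetase gene POR2648, listed as aspartate-ammonia ligase, had the deepest dip of the set. Its normalised counts were 19805, 18472 and 15687 in NR, 2437, 2929 and 2855 in NL1, 2449.7, 2311 and 2147 in NL2 and 30571, 23726 and 21824 in LND. Every NL library thus lay far below every NR and LND library, and NR was 6.56 and 7.81 times NL1 and NL2. LND was 9.26 times NL1. The log2 fold change in LND vs. NR was 0.47 ± 0.18 (SE), with an adjusted p of 0.056 in edgeR, and was not called, although each LND library lay above each NR library.

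Among the members with a product name here, POR2648 is the only one that takes part in nitrogen assimilation by that name. The list set beside it holds 10 genes of nitrate uptake and reduction and of ammonium assimilation, all from tables that the study chose on these libraries, so their directions are no independent evidence. In LND vs. NR, 1 of the 10 was higher, 6 were lower and 3 were not called, with a median log2 fold change of -1.39. Of all genes tested there, 7.96% were called higher and 11.8% lower, with a median of -0.038. Against NL1, LND had 2 of them higher and 7 lower, and against NL2, 1 higher and 6 lower. A fall from NR was called for 3 of the 10 under NL1 and for 4 under NL2, and a rise for 1 and 2. The list also holds the nitrate transporter gene POR6298, which meets the thresholds and was left out by the rule. Its group means were 628, 161, 186 and 1220 in NR, NL1, NL2 and LND, low under NL like those of POR2648. The glutamine synthetase gene POR7605, which makes glutamine from glutamate and ammonium, had group means of 3320.5, 6061, 7971 and 2660.1 in NR, NL1, NL2 and LND, highest where POR2648 was lowest. The glutamate dehydrogenase gene POR3485 had group means of 6007, 12363, 13931 and 25177 in the same order, and was called higher in LND vs. NR (log2 fold change 2.04 ± 0.16).

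Both genes listed here as flavohemoproteins were members. POR7105 had 24338, 22489 and 14446 in NR, 4947, 4488 and 4262 in NL1, 3092, 3203 and 3908 in NL2 and 44969, 51463 and 47093 in LND. It ended above its replete level, by a log2 fold change of 1.20 ± 0.21 in LND vs. NR (adjusted p = 0.0013 in edgeR), higher in 3 of 3 libraries. POR5270 had 6682, 5921 and 3889.9 in NR, 2427, 2786 and 2843 in NL1, 2173, 2103 and 2043 in NL2 and 36224, 40070.4 and 35291 in LND. Its dip was shallow (2.05-fold from NR to NL1), and its rise to LND was one of the largest of the set, at 17.7 times NL2 and 6.77 times NR. The log2 fold change in LND vs. NR was 2.73 ± 0.21 (adjusted p = 1.1e-05 in edgeR) and was called in every alternative setting run. The call of POR7105 was lost with scaling by library totals (0.90) and without LND replicate 2. By contrast, POR5270 missed the selection rule with TMM scaling and in 3 of the 12 settings that leave out 1 library, while POR7105 met it in all of them.

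POR3853 encodes an ADP-ribosylation factor 6, a small GTPase that in animal cells directs membrane traffic at the cell surface. Its normalised counts were 19495, 17829 and 14271 in NR, 3562, 3706 and 3947 in NL1, 2552, 2818 and 2431 in NL2 and 31919.8, 35093 and 33037 in LND. No condition overlapped another, and NL2 was the lowest. In LND vs. NR the log2 fold change was 0.93 ± 0.16 (adjusted p = 0.0015 in edgeR), under the minimum of 1, so the gene was not called. The flippase kinase 1 gene POR4745 is named after a yeast kinase that switches on the pumps moving phospholipids across the plasma membrane. It had 7785, 8567 and 3126 in NR, 2457, 2804 and 3508 in NL1, 3179, 2769.9 and 2412 in NL2 and 22411, 23519 and 23391 in LND. NR replicate 3 lay among the NL libraries and the other NR libraries lay above them. LND was above every other library, with a log2 fold change of 1.80 ± 0.32 in LND vs. NR (adjusted p = 0.0014 in edgeR), a call kept in every alternative setting run. The value was 1.48 ± 0.099 without NR replicate 3.

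The transcription factor gene POR7957 is named after WER (WEREWOLF), a MYB factor that sets the fate of root epidermal cells in *Arabidopsis*. It had 9149, 8107 and 3340.2 in NR, 2928, 2849 and 3491 in NL1, 2704, 2389 and 2162 in NL2 and 17182, 17929 and 19318 in LND. Here too NR replicate 3 lay among the NL1 libraries. The log2 fold change in LND vs. NR was 1.38 ± 0.31 (adjusted p = 0.0057 in edgeR), and the call was lost with library totals, without NR replicate 2 and without each LND library in turn. Without NR replicate 3 the value was 1.05 ± 0.10, and the call was kept. The other regulators listed here, the Myb-like gene POR8142 and the zinc finger gene POR0979, were not members, with a smallest difference of 0.19 and 0.84. This list of regulators was drawn up with earlier results of these data known, so its directions are no independent evidence. All 3 regulators were called higher in LND vs. NR, with a median log2 fold change of 1.54. Of all genes tested, 7.96% were called higher, with a median of -0.038.

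Small heat shock proteins gave 2 members. POR1316, listed as a chloroplastic protein of this family, had 10187, 7859 and 4634 in NR, 3206, 4114 and 3788 in NL1, 3346, 3455 and 3514 in NL2 and 16956, 16363 and 14944 in LND. POR3921 had 6209, 4440.2 and 2416 in NR, 1598, 2440.3 and 2182 in NL1, 1722, 1738 and 1894 in NL2 and 10453, 10585 and 9465 in LND. In both genes LND was the highest condition with no overlap, and NR replicate 3 was the lowest NR library, inside the NL1 range for POR3921. Their log2 fold changes in LND vs. NR were 1.06 ± 0.25 (POR1316) and 1.20 ± 0.28 (POR3921), with adjusted p of 0.0067 and 0.0068 in edgeR. Without NR replicate 3 they were 0.81 ± 0.11 and 0.91 ± 0.12, under the minimum fold. Both calls were also lost with library totals, without NR replicate 2 and without each LND library in turn. The other small heat shock protein genes of the list, POR6190 and POR6677, fell short of the rule with a smallest difference of 0.77 and 0.84, and were called higher in LND vs. NR (1.46 and 1.63).

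These genes belong to a list of 13 stress and signalling proteins, 4 of them members, with gene names from the study. The list was drawn up for this report with earlier results of these data known, so its directions are no independent evidence. In LND vs. NR, 11 of the 13 were higher, 0 lower and 2 not called, and the median log2 fold change was 1.80. All genes tested had 7.96% higher, 11.8% lower and a median of -0.038. The members among them were not the ones with the largest values there, since POR9133, a gene for a protein with an SH3 domain, reached 5.20 and the phototropin-1 gene POR7844 reached 3.75. Phototropins are blue light receptors. POR7844 had group means of 9515, 5153, 3399.7 and 130209 in NR, NL1, NL2 and LND, and missed the rule with a smallest difference of 0.88.

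The mannosylglycerate synthase gene POR3673 is the only member among the 89 genes of the carbohydrate-active enzyme table used here. Such synthases make mannosylglycerate, a small solute that protects proteins in heat-loving bacteria and is also found in red algae. It had 776, 744 and 478 in NR, 232, 229.7 and 299 in NL1, 273, 306 and 163 in NL2 and 656, 769.6 and 779 in LND. Its NR and LND libraries overlapped, and the log2 fold change of 0.11 ± 0.21 in LND vs. NR was not called (adjusted p = 0.70 in edgeR). Without NR replicate 3 it was -0.07 ± 0.16. Over the 87 carbohydrate-active genes tested, 6 were higher and 9 lower in LND vs. NR, against 7.96% and 11.8% of all genes. Their median log2 fold change was 0.081 and that of all genes -0.038.

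**Figure D3:**
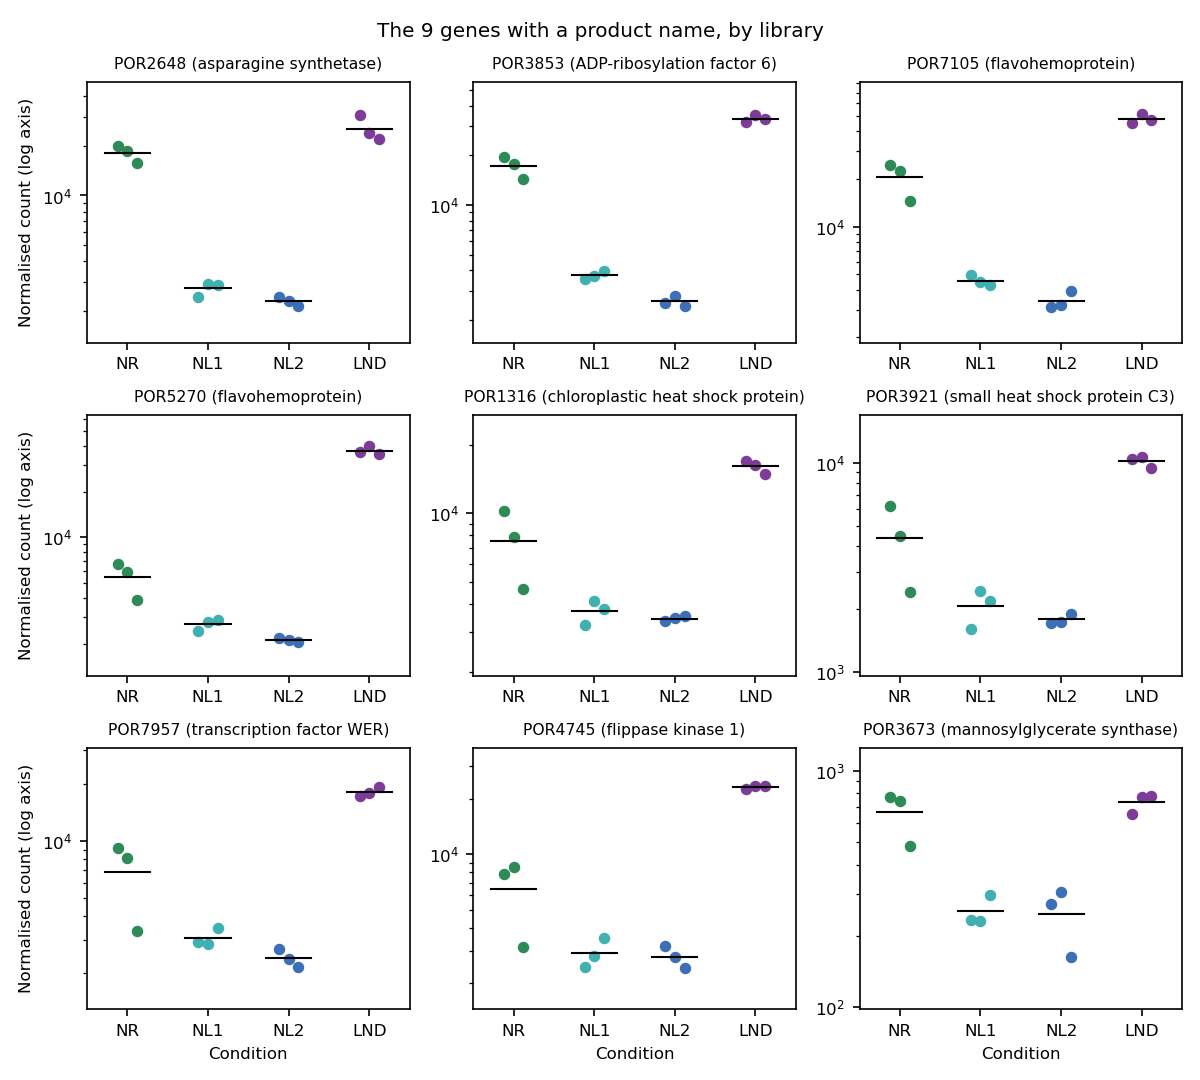
Normalised counts (log axis) of the 9 members with a product name in each condition, with 1 point for each library and a line at the group mean. NL1 and NL2 are low in each panel, LND lies above NR in all panels but that of the mannosylglycerate synthase gene, where they overlap, and NR replicate 3 is the lowest NR point of every panel.

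Among members without a product name, POR4521 had the most counts. It had 104079, 99107 and 65226 in NR, 24848, 23469.9 and 32419.5 in NL1, 25618, 22582 and 31912 in NL2 and 119773, 112735 and 98587 in LND. Replete and depleted libraries overlapped, and the log2 fold change in LND vs. NR was 0.28 ± 0.21 (adjusted p = 0.33 in edgeR), or 0.10 ± 0.097 without NR replicate 3. POR3169, the second by counts, had 65429, 67195 and 26829.5 in NR, 16314, 15833 and 15055 in NL1, 12258, 10669 and 9834 in NL2 and 44584, 39504 and 40126 in LND. Here NR replicate 3 was well below the other NR libraries and below LND, while those other libraries were above LND, and the fold change of -0.39 ± 0.30 was not called (adjusted p = 0.34 in edgeR). Without NR replicate 3 it was -0.70 ± 0.091 (adjusted p = 2.3e-06 in edgeR), still under the minimum fold.

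The deepest dips after POR2648, POR3853 and POR7105 were those of POR8822 and POR8420, both without a description. POR8822 had 758, 701 and 478 in NR, 21.3, 42.9 and 50.9 in NL1, 70.3, 25.4 and 64 in NL2 and 244, 295 and 174 in LND. It came only part of the way back, with a log2 fold change of -1.47 ± 0.27 in LND vs. NR (adjusted p = 0.0018 in edgeR). That call was lost without LND replicate 1 and without LND replicate 3. POR8420 had 698, 576 and 558 in NR, 162, 132 and 121 in NL1, 107, 102 and 112 in NL2 and 1214, 1022 and 1165 in LND, so that each LND library was above each NR library, by 0.86 ± 0.16 (adjusted p = 0.0021 in edgeR), which is under the minimum fold.

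How far the genes came back was read from LND vs. NR, a difference on which the rule sets no bound, although it used both groups. Of the 76 members, 12 were called higher in LND (15.8% of members, against 7.96% of the 9150 genes tested) and 7 lower (9.21%, against 11.8%), while 57 were not called. The median log2 fold change was 0.0037, against -0.038 for all genes, and the range was -3.37 to 3.11. In 31 members the fold change was under 0.5 in size. At an adjusted p under 0.01 with no minimum fold, a setting added after seeing the data, 15 were higher and 10 lower (13.2% and 15.3% of all genes).

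These counts changed when single libraries were left out and with the scaling. The number called higher fell to 7 without NR replicate 2, 7 without LND replicate 1, 5 without LND replicate 2 and 6 without LND replicate 3. Over all genes tested, the higher calls fell too, from 728 to 690, 569, 557 and 597 in the same order. A fit with 1 library fewer has less power, and how much of the fall this makes up was not tested. Of the 12, 5 kept the call in all 6 settings that leave out 1 library, and of the 7 lower, 4 did. With scaling by library totals in place of TMM, the median of all genes tested moved from -0.038 to -0.35, and 5 members were higher and 11 lower. Higher calls were then 31.3% of the member calls, in place of 63.2%, and those of all genes tested were 19.6% of the calls in place of 40.3%. All 5 of those higher calls and 7 of the 11 lower ones were also calls with TMM.

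**Figure D4:**
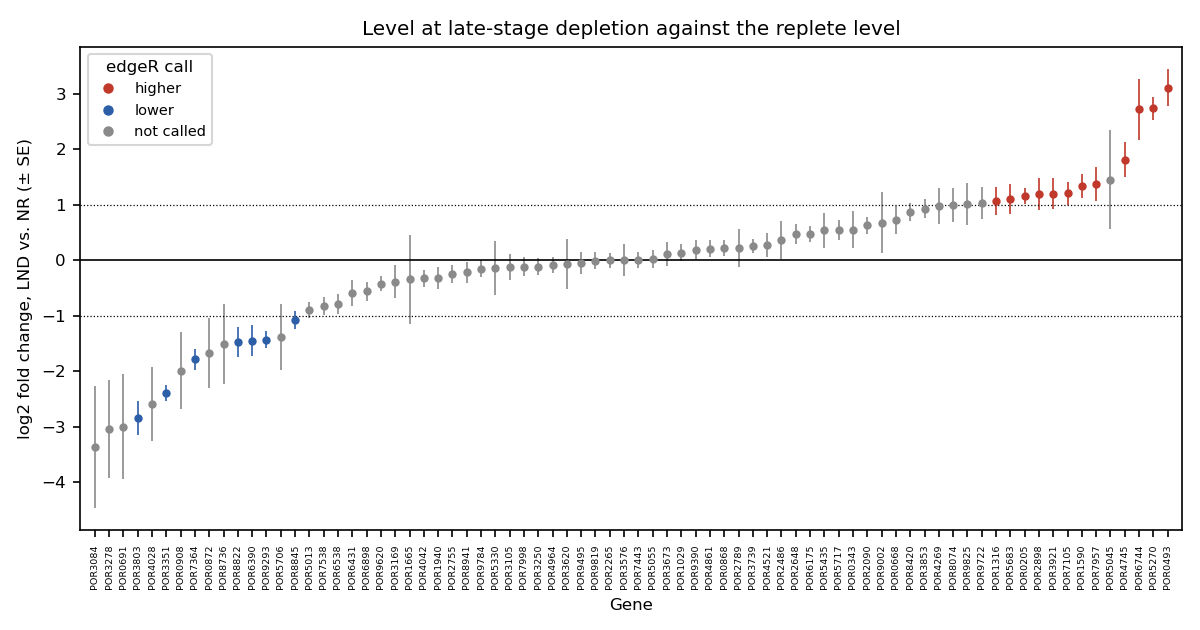
Log2 fold change in LND vs. NR with its SE for each of the 76 members, sorted, from edgeR on 3 libraries per condition. Dotted lines mark a log2 fold change of 1 in size, red and blue points are called higher (12) and lower (7), and the wide bars at the lower end belong to genes with few counts.

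The members that overshot most are listed as hypothetical proteins, apart from the flavohemoprotein POR5270 and the kinase POR4745. POR0493 had 957, 1039 and 439 in NR, 216, 438 and 319 in NL1, 227, 319.8 and 242 in NL2 and 4750.2, 7917 and 8859 in LND, so that the lowest LND library was several times the highest NR library. Its log2 fold change of 3.11 ± 0.34 in LND vs. NR (adjusted p = 7.4e-05 in edgeR) was called in every alternative setting run. POR6744 had 1865, 1852 and 253 in NR, 624, 554 and 545 in NL1, 509.9, 408 and 319.9 in NL2 and 9205, 8402 and 9206 in LND. NR replicate 3 lay below all NL libraries, whereas the other NR libraries lay above all of them. The log2 fold change in LND vs. NR was 2.72 ± 0.55 (adjusted p = 0.0032 in edgeR), and the call was lost without any 1 of the LND libraries. The value without NR replicate 3 was 2.24 ± 0.11, and the call was kept.

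POR5045 would be among the largest overshoots by its fold change of 1.45, but its NR libraries do not agree. It had 601, 376 and 7721 in NR, 973, 894 and 519.8 in NL1, 501, 672 and 861 in NL2 and 8340.0, 8700.2 and 7144 in LND. NR replicate 3 was at the LND level and the other NR libraries were at or below the NL level. With all libraries the difference was not called (SE 0.90, adjusted p = 0.22 in edgeR). Without NR replicate 3 the gene did not meet the rule, and its log2 fold change in LND vs. NR was 4.01 ± 0.17. For this gene the dip rests on 1 library.

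Of the 7 members called lower, POR3803 and POR3351 had the most negative log2 fold changes. POR3803 had 767, 635 and 1261 in NR, 41.6, 36 and 48.7 in NL1, 16.2, 36.2 and 16 in NL2 and 146, 97.1 and 133 in LND. All LND libraries were above all NL libraries and far below all NR libraries, with a log2 fold change of -2.84 ± 0.31 in LND vs. NR (adjusted p = 7.1e-05 in edgeR). POR3351 was chosen for its place in the plot after its values were seen. It had 4300.4, 3976 and 4229 in NR, 373, 325 and 287 in NL1, 346, 418 and 445 in NL2 and 942, 765 and 724 in LND. Its log2 fold change in LND vs. NR was -2.39 ± 0.15 (adjusted p = 3e-06 in edgeR). Both were called lower in every alternative setting run.

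The other higher calls, named here because they were called, were POR0205, POR5683, POR1590 and POR2898, none with a description. POR0205 had 1284, 1436 and 1097 in NR, 491, 473 and 542 in NL1, 554, 509 and 419 in NL2 and 2700.1, 2822 and 3141 in LND, with close values in each condition. Its log2 fold change of 1.15 ± 0.15 in LND vs. NR (adjusted p = 0.00019 in edgeR) was lost only with library totals. POR1590 had 254, 298 and 211 in NR, 131, 96.9 and 151 in NL1, 83, 100.4 and 79 in NL2 and 577, 691 and 698 in LND. Its value of 1.33 ± 0.21 (adjusted p = 0.00087 in edgeR) was called in every setting run, although its dip was among the shallowest. POR5683 (1.11 ± 0.27) and POR2898 (1.19 ± 0.28) each kept the call in 2 or fewer of the 6 settings without 1 library.

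The other lower calls were POR7364, POR8845, POR9293 and POR6390, again without a description. POR9293 had 9376, 8324 and 9693 in NR, 1489, 1241 and 1514 in NL1, 1556, 1509 and 1689 in NL2 and 3819, 3564 and 2982 in LND, so that the LND libraries lay between the other conditions with no overlap. Its log2 fold change in LND vs. NR was -1.43 ± 0.15 (adjusted p = 5.3e-05 in edgeR). POR7364 had 733, 768 and 827 in NR, 137, 102 and 54.4 in NL1, 74.6, 83.3 and 136 in NL2 and 254, 202 and 230.0 in LND, in the same order. Its value of -1.79 ± 0.19 and that of POR9293 were called in every setting run. The call of POR8845 (-1.08 ± 0.17) was lost without NR replicate 2, and that of POR6390 (-1.45 ± 0.28) without NR replicate 3 and without each LND library in turn.

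Of the 57 members not called, 44 had a largest group mean of at least 200. Some of these came back to values inside or near the replete range. POR2265, chosen after its values were seen, had 1997, 2271 and 2554 in NR, 840.0, 729 and 716 in NL1, 786, 887 and 685 in NL2 and 2303, 2273 and 2346 in LND. All LND libraries lay inside the NR range, and the log2 fold change was -0.0058 ± 0.14. POR5055, chosen in the same way, had 3498, 3262 and 2374 in NR, 922, 1053 and 1061 in NL1, 1018, 967 and 979.8 in NL2 and 2860.0, 3145 and 3427 in LND, with a log2 fold change of 0.019 ± 0.16. Both met the rule in all 12 settings that leave out 1 library.

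The other large negative values belong to genes with few reads. In 13 members the largest group mean was under 200, and none of the 13 was called in LND vs. NR by edgeR with TMM scaling and all libraries. The Wald test of DESeq2 called POR3084, POR0691, POR3278 and POR4028 lower, and edgeR called POR4028 lower with library totals, POR3084 without LND replicate 1 and 4 of the 13 without NR replicate 3. POR3084 had 61, 48 and 29 counts in NR, 0, 11 and 0 in NL1, 6, 6 and 0 in NL2 and 17, 0 and 2 in LND. POR0691 had 45, 38 and 22 counts in NR, 0, 6 and 4 in NL1, 1, 6 and 0 in NL2 and 9, 0 and 12 in LND. In both, LND replicate 2 was at 0 while the other LND libraries held counts. POR3278 had 65, 15 and 41 counts in NR, 2, 1 and 8 in NL1, 0, 3 and 8 in NL2 and 8, 10 and 4 in LND. POR4028 had 75, 59 and 60 counts in NR, 0, 3 and 22 in NL1, 6, 0 and 0 in NL2 and 21, 19 and 10 in LND. For these 4 genes the NR libraries stood clear above the rest, and the LND libraries overlapped those of NL. POR0908, named for its zeros after its values were seen, had 48, 28 and 34 counts in NR, 18, 0 and 0 in NL1, no counts in NL2 and 8, 13 and 26 in LND. Against a floor of 3 counts over the 3 NL2 libraries, its NR mean was at least 81.7-fold higher and its LND mean at least 20.4-fold higher. Such floors cover counting error only.

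In NL2 vs. NL1 no member was called by edgeR, as no gene was (0% in either direction), with 71 members tested. DESeq2 called 0 members with its Wald test and 0 with its likelihood ratio test, but gave no adjusted p for 51 and 42 of them. At an unadjusted p under 0.05 there were 6 members, all lower in NL2, which is 8.45% of those tested against 9.08% of all genes. The log2 fold changes ran from -0.87 to 0.46 with a median of -0.096, and 67.6% were negative, against 51.0% over all genes tested. Among the 5 members with the most counts, the lowest values were those of POR3169 (-0.53 ± 0.12, adjusted p = 0.47 in edgeR) and POR3853 (-0.52 ± 0.11, adjusted p = 0.41).

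NR replicate 3 moved with the class of a gene. In 11 of the 12 members higher in LND vs. NR it was the lowest NR library, with a median of -1.05 log2 units from the mean of the other NR libraries. It was the lowest in 2 of the 7 lower members (median 0.13) and in 32 of the 57 not called (median -0.15). Over the 8943 genes it was the lowest in 45.4% and the highest in 42.6%. Its level enters the NR mean and so the fold change, and its part in the classes was tested only by leaving it out. Without it 10 members were higher in LND vs. NR and 10 lower, and 9 and 6 of these were calls with all libraries. POR5683, POR1316 and POR3921 were no longer called higher, and POR6390 was no longer called lower. POR5045 became a higher call, and POR4028, POR0691, POR3084 and POR0872 became lower calls.

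**Figure D5:**
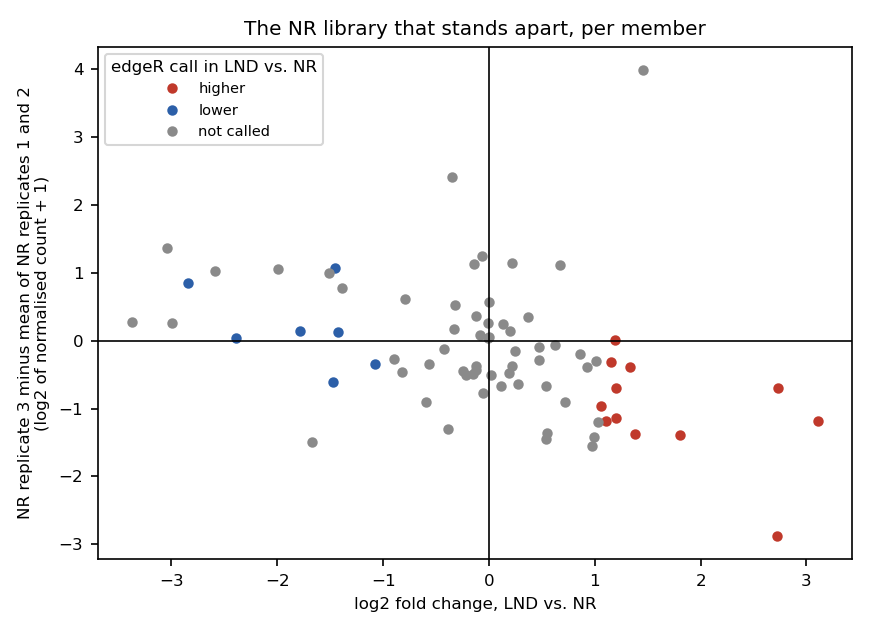
Deviation of NR replicate 3 from the mean of the other NR libraries (y axis, log2 of normalised count + 1) against the log2 fold change in LND vs. NR (x axis) for the 76 members, coloured by edgeR call. Both axes use NR replicate 3, so a downward tilt is built in. All red points but that of POR2898 lie below 0 in y, the lowest being POR6744, and the point at the top is POR5045.

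The spread between libraries was wider in NR than in the other conditions, for members (median coefficient of variation 23.3%) as for all 8943 genes (19.7%). In LND it was 10.3% for members and 11.5% for all genes. In 10 members the NR and NL libraries overlapped, and in 7 of the 10 NR replicate 3 was the lowest NR library. These 10 include POR6744, POR7957, POR4745, POR3921 and POR5045 above. In 7 members the LND and NL libraries overlapped, and all 7 had few counts.

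The set itself changed with the way it was drawn. It held 69 genes with TMM scaling, all of them members, and 55 with library totals, 52 of them members. With group medians it held 80 genes, 60 of them members, and without NR replicate 3 it held 96, 68 of them members. Of the 76, 39 met the rule in all 12 settings that leave out 1 library, and 30 of these also did with TMM scaling and with library totals. POR2648, POR3853, POR7105, POR8822, POR8420 and POR4521 met it in each of these settings.

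The members lie on 17 scaffolds of the genome assembly by their identifiers. The scaffold scf295_1 holds 24 of them (31.6%) and 26.5% of all genes, scf209_3 holds 13 (17.1%) and 10.8% of all genes, and scf208_2 holds 9 (11.8%) and 12.1% of all genes. The rest hold 7 members or fewer. Both flavohemoprotein genes are on different scaffolds, scf295_1 (POR7105) and scf295_9 (POR5270), and both small heat shock protein genes are on scf209_3. The strand setting of the counting was not stated, so reads of a gene and of an overlapping gene on the other strand cannot be told apart for any member. The flavohemoprotein and small heat shock genes belong to families, and reads shared between close copies could be split or lost in the counting.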

How the data were processed

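Raw read counts for each gene were deposited in 1 table, to which the authors applied no normalization. The authors aligned stranded paired reads with STAR 2.7.8a and counted them with featureCounts 2.0.1 on version 2 gene models, with a strand setting not given in the sources used here. The labels name technical replicates, whereas a caption of the paper names biological ones, and the labels were followed. The label ND was read as LND. The authors' own comparisons (likelihood ratio test of DESeq2 1.34.0) were not used.

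The members and gene lists were chosen with earlier results of these data known. The members were found on counts divided by DESeq2 size factors, with 0 columns left without a sample. Each pair of conditions was fitted on its 6 libraries by the quasi-likelihood F-test of edgeR 4.0.16 under R 4.3.3, after filterByExpr (minimum count 10) and TMM scaling, Benjamini-Hochberg adjusted over all genes of the fit. DESeq2 1.42.0, other scalings, no filter, 1 fit for all conditions, a replicate block and leaving out single libraries were alternatives, and the procedure was tested on simulated data. The genes named are members with a product name, those with the deepest dip, the extreme values in LND vs. NR, the most counts or a place at the threshold, and others are marked as chosen later. Gene names come from the supplementary annotation of the study, which was not taken up for every member. Sequences and coordinates were not used here.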

Additional observations from a re-analysis of the deposited data

How the results depend on the processing

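The number of genes that meet the rule stayed within 1.5 times of 76 in all settings, from 67 to 96 when 1 library was left out. The smallest count over all settings was 55, with library totals. Members called lower in NL1 vs. NR (45) and NL2 vs. NR (59) ran from 36 to 60 and from 41 to 66 when 1 library was left out, and those called higher in LND vs. NL1 (67) and vs. NL2 (65) from 62 to 66 and from 61 to 67. Members called higher in LND vs. NR (12) ran from 5 to 14 and those called lower (7) from 5 to 10. With library totals 5 were higher and 11 lower, and the Wald test of DESeq2 called 11 lower; the cause was not tested. Over the 76 members, no call changed sign, and 11 of the 19 calls in LND vs. NR were lost and 14 gained under some setting. In NL2 vs. NL1 no member was called under any setting, although 37 genes of the whole table were called higher and 3 lower without NL1 replicate 3. Replicate numbers did not pair the libraries, since deviations of same-numbered libraries correlated at -0.32 to 0.095 over 18 pairs and a library matched best with its own number in 7 of 36 cases. With the replicate block, 41 and 52 members were lower in NL1 and NL2 vs. NR, 67 and 65 higher in LND vs. NL1 and NL2, and 12 higher and 7 lower in LND vs. NR. Counts under about 200 per group mean limit what can be said of 13 members.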
